A study of Mus musculus with 19 samples.

Results

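Neoplastic cells from tumors in which *Cebpa*, *Cebpb* and *Cebpd* had been targeted by Cas9 were compared with neoplastic cells from control tumors by RNA-seq. The libraries were chosen by their virus label, which gave 7 sgCebpa/b/d and 7 sgInert libraries of the 19 in the series. All mice carried the same tumor-initiating allele with R26LSL-tdTomato and H11LSL-Cas9, so that cells reached by Cre express a red fluorescent protein and Cas9. Control tumors came from the virus Lenti-sgInert/Cre, which carries the inert sgRNAs sgNeo1, sgNT and sgNeo2, and targeted tumors from Lenti-sgCebpa/sgCebpb/sgCebpd/Cre. Both groups therefore share these alleles, Cre, Cas9 and a growth time of 17 weeks. The paper describes NT sgRNAs as non-targeting, and how much the inert sgRNAs cut was not measured here. The virus was given into the airway, and dissected tumors were dissociated. Live cells that lacked CD45, CD31, F4/80 and Ter119 were sorted. The paper describes the sorted neoplastic cells of its other RNA-seq experiments as tdTomato-positive, a gate that cells not reached by Cre would fail. The number of tumors in a library is not given in the sources used here.

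Titles of 7 of these 14 libraries begin with an animal number of the form MT, and these were also compared on their own, as 4 sgCebpa/b/d against 3 sgInert libraries. The other 4 sgInert libraries have ZR animal numbers, and the other 3 sgCebpa/b/d libraries have titles without an animal number. The labels do not say what these titles stand for. The 4 MT sgCebpa/b/d libraries were female and the 3 unnumbered ones male, while the MT sgInert libraries came from 2 females and 1 male and the ZR libraries from 1 female and 3 males. Sex and title series of the sgCebpa/b/d libraries can thus not be told apart. The 4 MT sgCebpa/b/d libraries came from 2 animal numbers, as did the 3 MT sgInert libraries, so that p-values measure the spread between libraries, some of which share an animal.

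C/EBPα, C/EBPβ and C/EBPδ are leucine zipper transcription factors that pair with each other and recognise the same DNA element. In the lung they are known for driving the mature program of alveolar type II (ATII) cells, which make surfactant lipid and protein, and in the liver for acute phase and metabolic genes. The account below leaves the ATII markers themselves aside, apart from those that are also secreted defence proteins, and turns to the other genes and pathways that differed.

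The targeted genes gave no check of the labels, because small insertions and deletions need not lower a transcript. *Cebpa* had 42.7 to 68.8 CPM (counts scaled by TMM to a common library size) in sgInert and 71.9 to 125 in sgCebpa/b/d libraries, so that the groups did not overlap and the targeted one was higher. Its log2 fold change was 0.73 over all libraries and 0.74 among MT libraries (edgeR quasi-likelihood test, Benjamini-Hochberg adjusted p = 0.00147 and 0.00344). *Cebpb* had 3.98 to 5.11 CPM in the 4 MT sgCebpa/b/d libraries and up to 23.6 CPM in the unnumbered ones, against 3.06 to 6.58 CPM in sgInert. *Cebpd* overlapped between the groups of 7, at 43.0 to 122 and 55.0 to 166 CPM. Among MT libraries it was lower in all 4 sgCebpa/b/d libraries, at 55.0 to 80.9 CPM, than in the 3 sgInert libraries, at 111 to 122 CPM.

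Library depth was 3935861 to 7791705 counts in sgInert and 2760731 to 9944134 in sgCebpa/b/d. The summed level of 9 epithelial identity markers was 18656 to 24769.6 CPM in sgInert and 15195 to 21685 CPM in sgCebpa/b/d. Markers of cells that the sort should remove were not evenly spread. The summed level of 14 endothelial markers was 68.3 to 126 CPM in sgInert and 62.1 to 117 CPM in MT sgCebpa/b/d libraries, but 289.7 to 411 CPM in the 3 unnumbered ones. The 18 macrophage and dendritic markers summed to 20.2 to 337 CPM, 55.8 to 66.7 CPM and 1029 to 1201 CPM in the same order. Of these, 10, among them *Adgre1*, *Marco*, *Itgax* and *C1qa*, had at most 3 counts in every MT library. The 15 fibroblast markers belong to cells that the antibodies of the sort do not target. They summed to 55.2 to 74.3 CPM in MT and 145 to 396 CPM in ZR sgInert libraries. In sgCebpa/b/d libraries they summed to 167 to 410 CPM in MT and 331 to 460.5 CPM in unnumbered ones. In bulk samples, fewer cells of a type and less RNA per cell cannot be told apart.

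**Figure D1:**
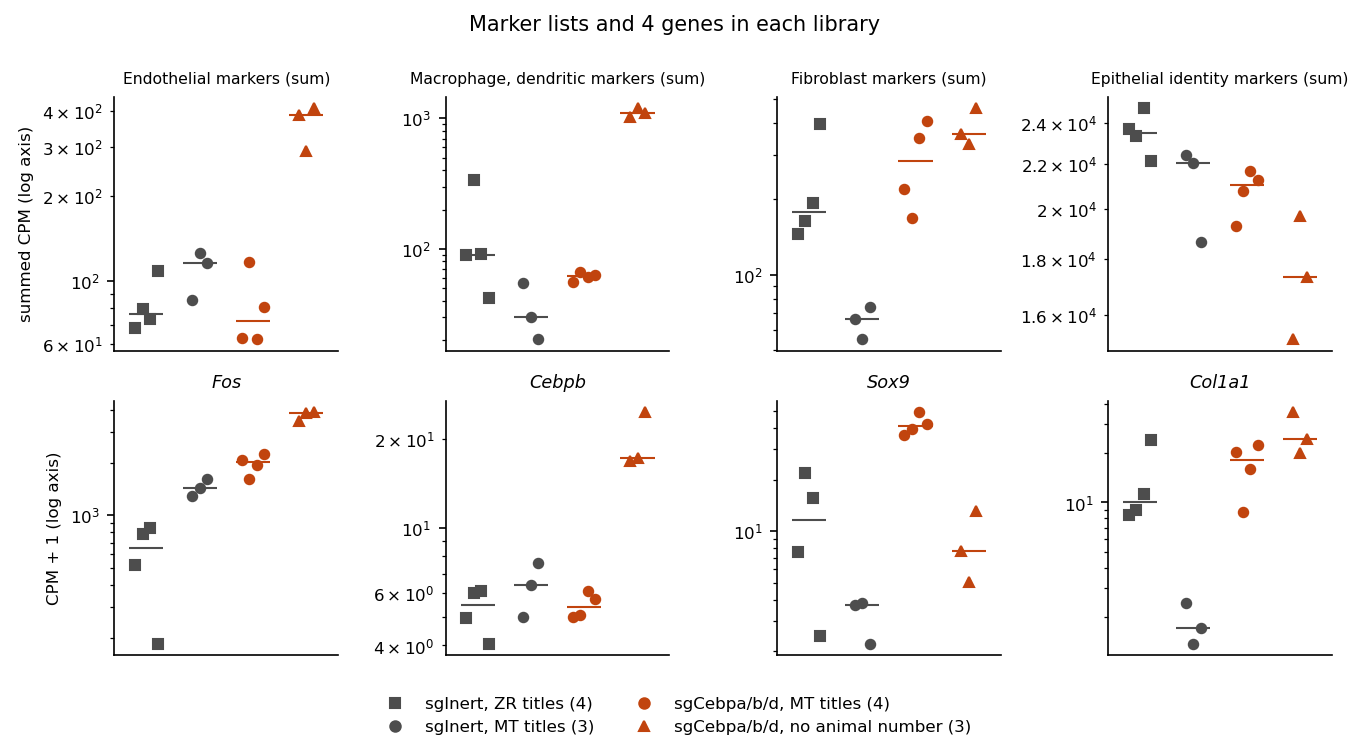
Summed CPM of 4 marker lists (endothelial, macrophage and dendritic, fibroblast, epithelial identity) and CPM of *Fos*, *Cebpb*, *Sox9* and *Col1a1*, on log axes, with 1 point for each of the 14 libraries, arranged by virus and title series. The 3 unnumbered sgCebpa/b/d libraries stand above all others in endothelial and macrophage markers, while *Sox9* and *Col1a1* are low in the 3 MT sgInert libraries.

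A gene was called if its adjusted p was under 0.05 and its log2 fold change was beyond 1 in either direction. Over all libraries, 370 of 13986 genes (2.65%) were called higher and 280 (2.00%) lower in sgCebpa/b/d. Among MT libraries, 313 of 13674 genes (2.29%) were called higher and 220 (1.61%) lower. Both comparisons called 163 genes higher, which is 44.1% of the higher calls over all libraries and 52.1% of those among MT libraries. Both called 161 genes lower, which is 57.5% and 73.2%. Of the 4 MT sgCebpa/b/d libraries, 3 share an animal number. With libraries of 1 animal summed, 146 genes were higher and 129 lower among MT libraries, and 71 higher and 108 lower in both. No gene was called in opposite directions. The 7 sgCebpa/b/d libraries lay above all 7 sgInert libraries for 1.28% of genes and below them for 2.09%, while the 4 MT sgCebpa/b/d libraries lay above the 3 MT sgInert libraries for 9.92% and below for 9.73% of the 13523 genes tested in both comparisons.

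Genes called lower over all libraries had the same sign among MT libraries in all 276 cases that could be tested there, with a median log2 fold change of −1.58 over all libraries and −1.48 among MT libraries. Of the genes called higher, 327 of 339 had the same sign among MT libraries and 12 the opposite one, and the median was 1.92 over all and 1.42 among MT libraries. An unadjusted p above 0.05 or an opposite sign among MT libraries was found for 97 genes called higher and for 25 called lower. The MT libraries are part of both comparisons, so that shared libraries fix much of this likeness of sign. The unnumbered and ZR libraries share no library with the MT comparison. Between them, 263 of 306 genes called higher among MT libraries (85.9%) had a positive log2 fold change, against 50.6% of all genes, and 202 of 220 called lower (91.8%) a negative one, against 49.4%. Over all 13986 genes the log2 fold changes of these separate sets of libraries, taken from 1 fit, had a Pearson correlation of 0.297. The median over all genes was 0.02 and −0.00278 on the log2 scale. The effect itself differed between the title series (MT against MT, minus unnumbered against ZR) at an adjusted p under 0.05 for 337 genes (2.41%). No sgCebpa/b/d library has a ZR title, and no sgInert library lacks an animal number. The unnumbered against ZR values therefore mix targeting with title series.

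**Figure D2:**
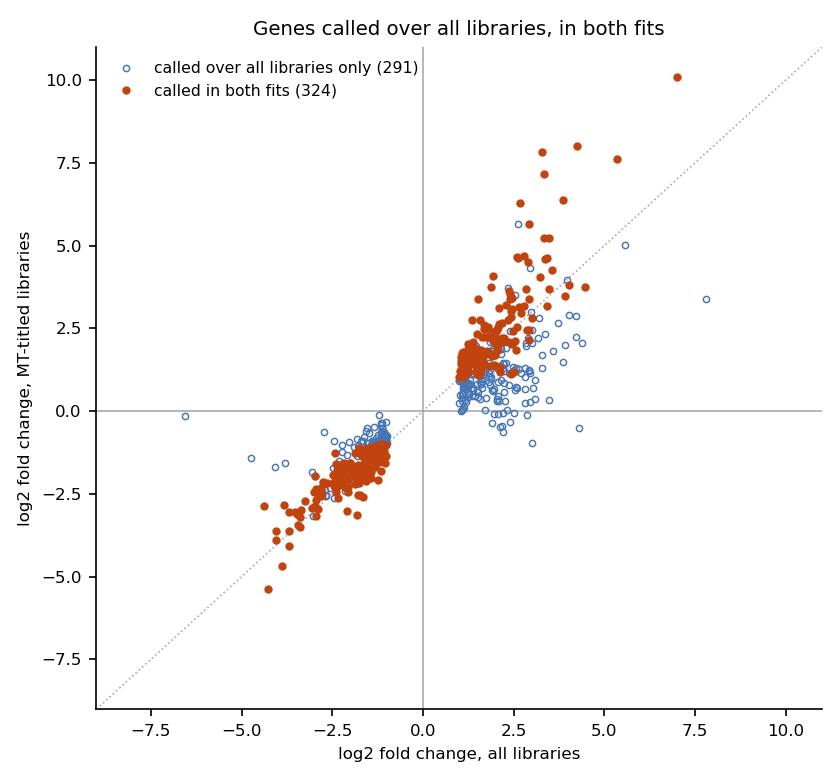
Log2 fold changes of sgCebpa/b/d against sgInert over all libraries (x axis) and among MT libraries (y axis), with 1 point for each of the 615 genes called over all libraries and tested in both. The 324 genes called in both lie along the diagonal on either side, and the 291 called only over all libraries include points near 0 or below it on the y axis for genes that were higher over all libraries.

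Several secreted defence proteins were among the steepest falls. Of 19 antimicrobial and acute phase genes tested, 6 were lower over all libraries (*Lyz1*, *Lyz2*, *Chil1*, *Slpi*, *Lcn2*, *Lbp*) and the same 6 of 18 were lower among MT libraries. Of these 6, *Lyz1*, *Lyz2*, *Chil1* and *Lcn2* are also ATII markers, and only *Slpi* and *Lbp* are not on that marker list. In the other direction, 2 were higher over all libraries (*Retnla*, *Chil4*) and 3 among MT libraries (*Retnla*, *Cd14*, *Hp*). The list median was −0.33 and −0.03, and 7 members had a positive log2 fold change over all libraries. *Lyz2*, the lysozyme of lung epithelium and macrophages, had 11967 to 18288 CPM (median 16472) in sgInert and 421 to 2734 CPM (median 1571) in sgCebpa/b/d libraries. The 2 ranges were far apart, also among MT libraries alone. Its log2 fold change was −3.52 (SE 0.32, adjusted p = 2.51e-07) over all libraries and −3.05 (SE 0.18, adjusted p = 5.78e-07) among MT libraries. *Lyz1* had a log2 fold change of −4.05 and −3.91, but it is a near-identical copy and its estimate depends on that of *Lyz2*.

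*Chil1*, a chitinase-like secreted protein, had 445 to 1043 CPM (median 756) in sgInert and 34.1 to 123 CPM (median 70.7) in sgCebpa/b/d libraries, with no overlap. It fell by 3.40 on the log2 scale over all libraries (SE 0.25, adjusted p = 1.13e-08) and by 3.49 among MT libraries (SE 0.31, adjusted p = 1.32e-05). *Slpi*, an inhibitor of neutrophil proteases, had 14.9 to 35.3 CPM against 3.01 to 6.09 CPM and also did not overlap. Its log2 fold changes were −2.48 and −2.17 (adjusted p = 4.06e-07 and 0.000368). *Lcn2*, which withholds iron from bacteria by binding their siderophores, had 593 to 1324 CPM against 131 to 354 CPM. Among MT libraries it stood at 847, 761 and 625 CPM in sgInert and at 327, 272, 354 and 296 CPM in sgCebpa/b/d. Its fall was smaller there, at −1.26 against −1.88 over all libraries, and the effect differed between title series (adjusted p = 0.0237). *Lbp*, the carrier that delivers bacterial lipopolysaccharide, behaved alike, with −2.17 over all and −1.57 among MT libraries.

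*Retnla*, a secreted resistin-like protein, was the member that moved up in both comparisons. It had 10.3 to 42.2 CPM in sgInert and 41.7 to 948 CPM in sgCebpa/b/d libraries. Among the MT sgCebpa/b/d libraries it ranged from 41.7 and 48.5 to 137 and 743 CPM, so that the size of its rise varied widely from library to library. The log2 fold changes were 4.46 (adjusted p = 5.62e-05) and 3.75 (adjusted p = 0.0176), and the MT call was lost without sgInert replicate 2 or 5 (adjusted p up to 0.0901). *Cd14*, a coreceptor for lipopolysaccharide, was at 0.87 over all and 1.31 among MT libraries. *Hp*, the haemoglobin scavenger haptoglobin, was at 0.41 and 1.04, an MT call lost without sgInert replicate 7 or sgCebpa/b/d replicate 2 (0.90 and 0.93).

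Complement genes, whose products the liver is known to make in bulk, moved in part. Of 14 tested, 4 (*C3*, *C6*, *Hc* and *Cd59a*) were lower in both comparisons, none was higher over all libraries and 2 were higher among MT libraries. *Hc* is also an ATII marker. The medians were −0.16 and −0.13, and 6 and 7 of the 14 had a positive log2 fold change. *C3*, on which the complement cascade converges, had 99.5 to 197 CPM (median 129) in sgInert and 8.33 to 38.2 CPM (median 35.8) in sgCebpa/b/d libraries. The groups did not overlap, and sgCebpa/b/d replicate 1 was the lowest. *C3* fell by 2.17 on the log2 scale (SE 0.23, adjusted p = 1.25e-06) and by 2.10 among MT libraries (SE 0.31, adjusted p = 0.000697). *C6*, a part of the membrane attack complex, had 204 to 375 CPM against 5.27 to 58.2 CPM. Its log2 fold change was −3.69 over all and −3.05 among MT libraries, and the effect differed between title series (adjusted p = 0.0165). *C4b*, a component of the classical pathway, and *Cfi*, a protease that cleaves complement fragments, were called higher among MT libraries only, at 3.27 and 3.43 (adjusted p = 0.0125 and 0.0494). The call of *C4b* was lost without sgInert replicate 5 (adjusted p = 0.0699), and that of *Cfi* without sgInert replicate 5 or 7 or sgCebpa/b/d replicate 4 (adjusted p up to 0.189). The MT calls of *Hc* and *Cd59a* were lost without sgInert replicate 2 and replicate 7, each at a log2 fold change of −0.99.

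The promoters of 9708 of the 13986 genes tested were matched by symbol to RefSeq windows (GRCm38.p6) that run from 250 bases before to 50 bases after the start, and were searched on both strands for the C/EBP element TTGCNNAA, in which N is any base. A gene was counted once, with a match in any of its windows. The element was found for 34 of 118 genes called lower in both comparisons (28.8%) and for 46 of 199 called lower over all libraries (23.1%). Of all 9708 genes, 980 had it (10.1%). Of genes called higher, 30 of 254 had it (11.8%), and of those called higher in both, 12 of 115 (10.4%). Within the 250 bases before the start alone, the shares were 28% of genes lower in both, 11% of genes higher over all libraries and 9.09% of all genes tested. A match is a description of the letters and not evidence of binding.

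5 of these promoters are shown because their genes are among the secreted and steepest falls, with the 250 bases before the start printed 5′ to 3′ on the strand of the gene and the C/EBP element in capitals. They lie at chr17:57228137-57228386 (*C3*), chr2:32387740-32387989 (*Lcn2*), chr2:164356508-164356757 (*Slpi*), chr10:117292869-117293118 (*Lyz1*) and chr19:34166042-34166291 (*Ankrd22*, an ankyrin repeat protein), each on the minus strand.
C3: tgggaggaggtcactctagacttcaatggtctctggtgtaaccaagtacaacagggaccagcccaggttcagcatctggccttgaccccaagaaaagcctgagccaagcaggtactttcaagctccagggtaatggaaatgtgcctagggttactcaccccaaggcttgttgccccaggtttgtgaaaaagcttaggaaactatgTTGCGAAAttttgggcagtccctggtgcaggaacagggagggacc
Lcn2: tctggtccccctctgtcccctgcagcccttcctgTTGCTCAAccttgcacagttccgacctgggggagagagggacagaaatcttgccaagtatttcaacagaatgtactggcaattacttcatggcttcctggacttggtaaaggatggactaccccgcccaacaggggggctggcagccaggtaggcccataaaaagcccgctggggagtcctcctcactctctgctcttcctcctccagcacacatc
Slpi: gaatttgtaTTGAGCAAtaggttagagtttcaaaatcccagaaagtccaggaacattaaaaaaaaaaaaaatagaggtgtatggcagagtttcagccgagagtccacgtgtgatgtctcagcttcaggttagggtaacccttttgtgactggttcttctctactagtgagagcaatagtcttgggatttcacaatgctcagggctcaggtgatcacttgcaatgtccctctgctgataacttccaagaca
Lyz1: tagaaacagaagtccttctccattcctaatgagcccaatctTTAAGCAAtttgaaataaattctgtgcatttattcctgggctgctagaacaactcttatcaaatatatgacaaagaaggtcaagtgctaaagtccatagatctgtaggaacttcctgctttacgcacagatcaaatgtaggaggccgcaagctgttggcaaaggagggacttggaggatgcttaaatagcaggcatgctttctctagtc
Ankrd22: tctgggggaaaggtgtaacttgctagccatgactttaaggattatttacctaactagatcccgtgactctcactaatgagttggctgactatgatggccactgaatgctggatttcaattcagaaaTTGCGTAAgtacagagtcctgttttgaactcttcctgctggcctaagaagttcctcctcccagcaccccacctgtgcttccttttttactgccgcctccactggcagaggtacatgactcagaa
Counted from the start, the element begins at −45 in *C3*, −216 in *Lcn2*, −241 in *Slpi*, −209 in *Lyz1* and −124 in *Ankrd22*, so that these promoters share its letters but not its place. *Ankrd22* had 3.42 to 14.96 CPM in sgInert and 0 to 1.86 CPM in sgCebpa/b/d libraries, without overlap.

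**Figure D3:**
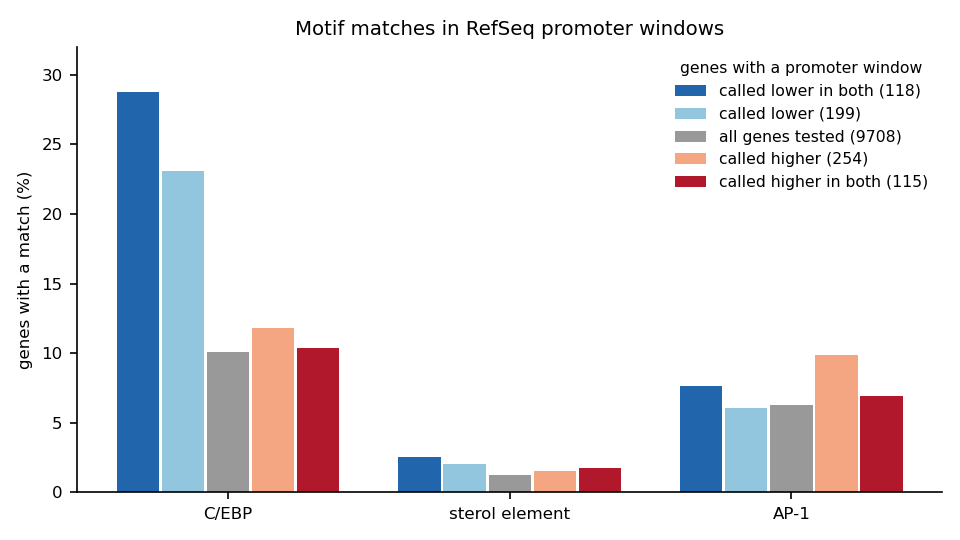
Percent of genes with the C/EBP, AP-1 or sterol element in a 300-base promoter window, for all genes tested and for genes called higher or lower over all libraries or in both comparisons. The C/EBP bars are tallest for genes called lower in both (28.8%) and stand at 10.1% for all genes tested.

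Single genes outside the defence lists fell as well. *Selenop*, the plasma selenium carrier, had the smallest p of all, with 1019 to 1275 CPM in sgInert and 369 to 439 CPM in sgCebpa/b/d libraries. Neither range was wide and they did not overlap. It fell by 1.51 on the log2 scale (SE 0.08, adjusted p = 7.16e-11) and by 1.46 among MT libraries (SE 0.10, adjusted p = 1.43e-06), and it was the only 1 of 19 selenoprotein genes tested that was called in either.

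*Cftr*, the chloride channel mutated in cystic fibrosis, had 61.7 to 224 CPM (median 126) in sgInert and 7.78 to 33.0 CPM (median 15.2) in sgCebpa/b/d libraries. The groups were well separated, and it fell by 2.96 over all libraries (SE 0.37, adjusted p = 1.09e-05) and by 2.85 among MT libraries (SE 0.36, adjusted p = 0.00027). *Ryr2*, a calcium release channel, had 13.0 to 33.8 CPM against 0.846 to 2.51 CPM (log2 fold change −3.70 and −3.61). *Tmem163*, a zinc transporter, had 60.8 to 118 CPM against 4.16 to 15.02 CPM (−3.35 and −2.99). *Cyp4v3*, a fatty acid hydroxylase, had 81.8 to 132 CPM against 16.6 to 26.8 CPM (−2.25 and −2.21). None of these 3 overlapped between the groups of 7, and none passed the test of a difference between title series (adjusted p = 0.947, 0.317 and 0.959).

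Among the 10 lowest log2 fold changes were also *Dmkn*, a secreted epithelial glycoprotein, and *Hs3st3a1*, a heparan sulfate sulfotransferase. *Dmkn* had 24.1 to 107 CPM in sgInert, 3.47 to 5.43 CPM in the MT sgCebpa/b/d libraries and as little as 0.169 CPM in an unnumbered one. Its log2 fold change was −4.38 over all libraries and −2.88 among MT libraries, and the difference between title series passed the test (adjusted p = 0.00447). *Hs3st3a1* had 10.9 to 44.6 CPM against 0 to 3.30 CPM. *Rasd2*, a small G protein of the Ras family, was also in this set (log2 fold change −3.83 and −2.82), but its MT adjusted p of 0.0418 held in only 1 of 7 fits that left out a library, with adjusted p up to 0.212. The predicted gene *Gm8113* had log2 fold changes of −3.69 and −4.09, and *Il33*, an alarm cytokine of the alveolar epithelium, −1.36 and −1.28, an MT call lost with libraries of 1 animal summed (adjusted p = 0.102).

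**Figure D4:**
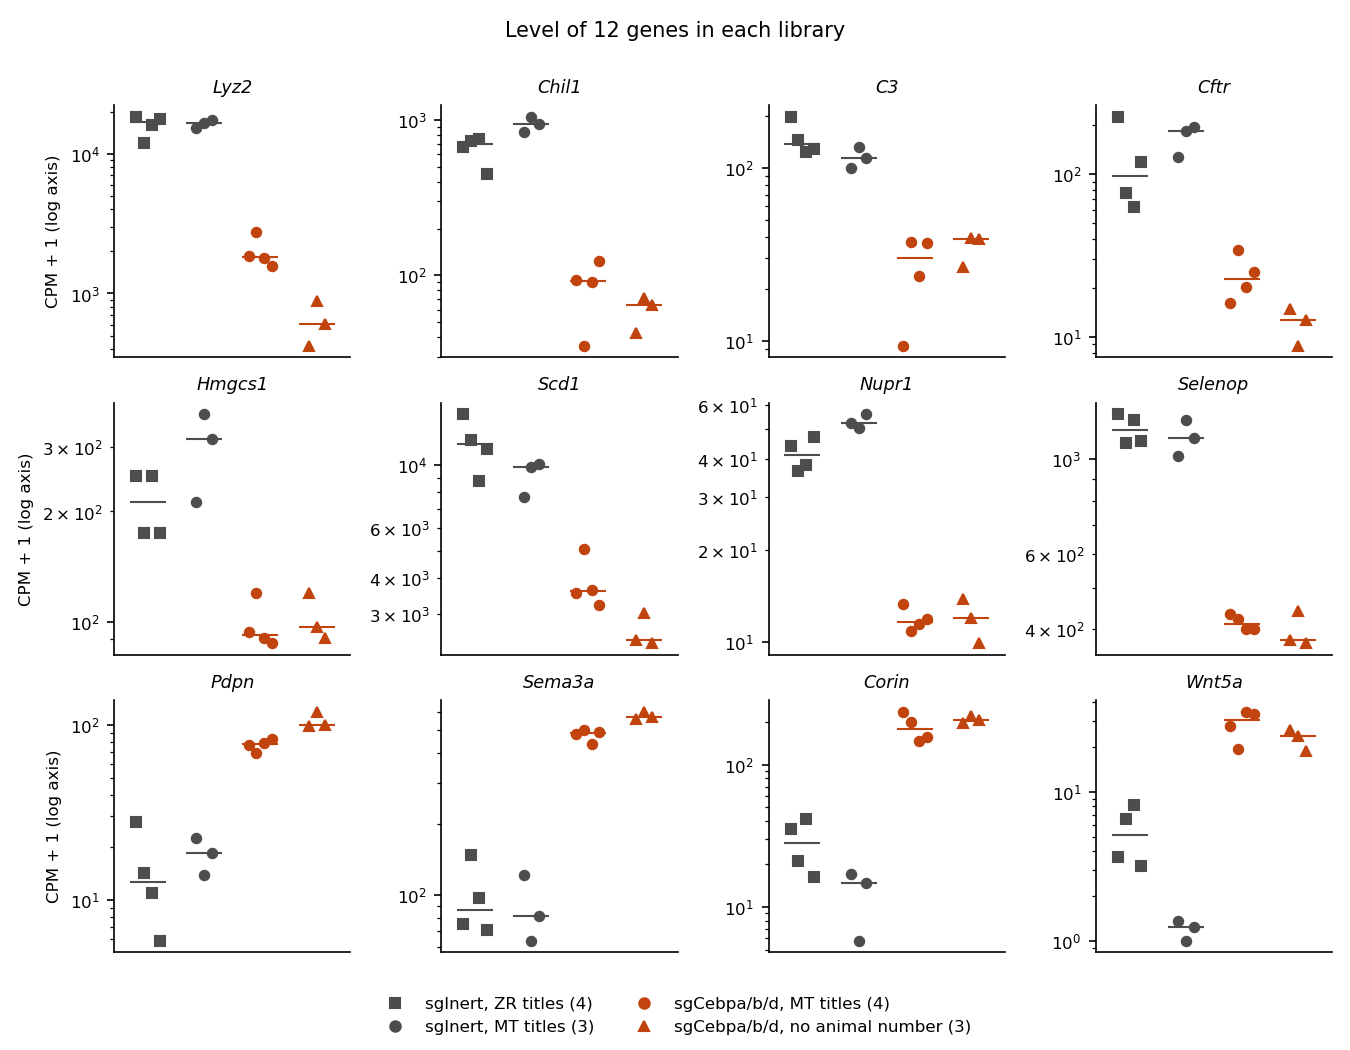
CPM on log axes of 12 genes, with 1 point for each library, sgInert and sgCebpa/b/d side by side and title series marked. *Lyz2*, *Chil1*, *C3*, *Cftr*, *Hmgcs1*, *Scd1*, *Nupr1* and *Selenop* are lower and *Pdpn*, *Sema3a*, *Corin* and *Wnt5a* higher in every sgCebpa/b/d library than in every sgInert library.

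Cholesterol synthesis was lower as a group. The pathway builds sterols from acetyl-CoA, and its genes are switched on together by SREBP2 when membranes run short of sterol. Of 20 sterol synthesis genes tested, 9 were lower over all libraries, among them *Hmgcs1*, *Idi1*, *Fdps*, *Sqle*, *Lss*, *Cyp51*, *Msmo1* and *Nsdhl*. The same 9 and *Dhcr7* were lower among MT libraries, and none was higher in either. The list median was −1.05 over all and −1.41 among MT libraries, against 0.02 and −0.00278 over all genes. Without 1 library the number lower was 8 to 11 over all libraries, and 4 to 13 among MT libraries. The 4 remained without sgInert replicate 5 and were *Cyp51*, *Fdps*, *Hmgcs1* and *Idi1*. *Nsdhl* was called over all libraries in only 4 of 14 such fits (adjusted p up to 0.138).

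*Hmgcs1*, which makes the precursor HMG-CoA, had 173 to 367 CPM (median 248) in sgInert and 86.4 to 119 CPM (median 92.7) in sgCebpa/b/d libraries, without overlap. It fell by 1.33 (SE 0.15, adjusted p = 3.88e-06), and by 1.63 among MT libraries (SE 0.17, adjusted p = 4.86e-05). *Fdps*, which makes farnesyl diphosphate, had 22.4 to 89.6 CPM against 5.85 to 19.9 CPM and fell by 1.88 and by 2.19. The MT sgInert libraries were uneven for this pathway. *Sqle*, the squalene epoxidase, had 13.5, 100.2 and 99.9 CPM in sgInert replicates 2, 5 and 7, and 19.6, 22.3, 11.9 and 11.2 CPM in the MT sgCebpa/b/d libraries. Replicate 2 thus lay within the range of the targeted libraries.

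The log2 fold change of *Sqle* among MT libraries was −2.15. This MT call was lost without sgInert replicate 5, without sgInert replicate 7 and without sgCebpa/b/d replicate 3 or 4, with adjusted p up to 0.0826. *Insig1*, the sterol-sensing retainer of SREBP, fell by 1.33 and 1.70, and its MT call was lost without sgInert replicate 5 (adjusted p = 0.0735). *Srebf2*, which encodes SREBP2, had 43.1 to 57.0 CPM against 18.8 to 31.2 CPM, with log2 fold changes of −0.92, below the size needed for a call, and −1.06. Its MT call was lost without sgCebpa/b/d replicate 1 (−0.95).

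*Hmgcs1* was the only 1 of 15 sterol synthesis genes with a promoter window that held the letters TCACNCCAC of a sterol element. Its promoter (chr13:119690101-119690350, plus strand, same source) is shown for this reason, with the element in capitals and beginning at −137.
Hmgcs1: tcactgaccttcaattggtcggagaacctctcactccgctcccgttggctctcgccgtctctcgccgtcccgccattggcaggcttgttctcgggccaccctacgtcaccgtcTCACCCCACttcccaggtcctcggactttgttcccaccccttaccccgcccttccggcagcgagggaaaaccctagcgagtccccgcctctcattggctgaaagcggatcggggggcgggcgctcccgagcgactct
The same letters were found for 1.27% of all genes with a window and for 2.54% of those called lower in both comparisons.

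Fatty acid synthesis and desaturation followed with smaller changes. Of 22 genes tested, 5 were lower over all libraries (*Scd1*, *Fads1*, *Fads2*, *Acss2*, *Mid1ip1*) and 5 among MT libraries, of which 4 were lower in both, and the medians were −0.58 and −0.44. *Scd1*, which introduces the double bond of oleic acid, had 7714 to 14999 CPM in sgInert and 2363 to 5075 CPM in sgCebpa/b/d libraries, without overlap. It fell by 1.68 (SE 0.17, adjusted p = 7.59e-07) and by 1.26 among MT libraries (SE 0.16, adjusted p = 0.0003). *Fads1*, which desaturates polyunsaturated fatty acids, had 45.7 to 131 CPM against 18.5 to 42.0 CPM and fell by 1.56 and 1.60. Without 1 library the number lower was 3 to 5 in each comparison. *Fads2* was lost without sgInert replicate 5 or 7 in each (adjusted p up to 0.0596 over all and 0.0943 among MT libraries), and *Acss2* held over all libraries in 5 of 14 fits (adjusted p up to 0.124).

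*Fasn*, the fatty acid synthase, did not overlap between the groups of 7 (495 to 808 against 248 to 457 CPM) but moved by less than 2-fold, at −0.93 over all and −0.59 among MT libraries (adjusted p = 6.99e-05 and 0.0121). *Acaca*, which makes malonyl-CoA, and *Prkaa2*, a catalytic subunit of the kinase that inhibits it, were called among MT libraries only. *Acaca* was at −0.96 over all and −1.02 among MT libraries, and *Prkaa2* at −0.93 and −1.02, both close to the size needed for a call. The MT call of *Acaca* was lost without sgInert replicate 7, and that of *Prkaa2* without sgInert replicate 7 or sgCebpa/b/d replicate 2 or 3, where the log2 fold changes came to −0.84 and −0.88. *Fabp5*, a fatty acid carrier, was lower in both comparisons. *Gpam* and *Mfsd2a*, of glycerolipid synthesis and lysophospholipid uptake, were lower over all libraries only. Over all libraries the call of *Fabp5* was lost without sgInert replicate 5 (−0.96), and that of *Gpam* held in 7 of 14 fits without 1 library (to −0.93).

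Genes of the amino acid response were lower in part. This response is run by the transcription factor ATF4 and raises amino acid uptake and synthesis, and includes the serine and one-carbon pathways. Of 33 genes tested, 8 were lower over all libraries and 9 among MT libraries, 7 in both (*Atf5*, *Asns*, *Chac1*, *Slc7a5*, *Vldlr*, *Cth*, *Nupr1*). 1 gene, *Wars*, was higher among MT libraries, a call lost without sgInert replicate 7 (0.92). The medians were −0.54 and −0.49, and without 1 library the number lower was 8 to 10 over all and 6 to 10 among MT libraries, with 6 without sgInert replicate 7.

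*Nupr1*, a small stress-induced nuclear protein, had 35.5 to 55.1 CPM (median 46.3) in sgInert and 8.87 to 12.8 CPM (median 10.8) in sgCebpa/b/d libraries, each group tight and apart from the other. It fell by 2.07 (SE 0.17, adjusted p = 9.66e-08) and by 2.29 among MT libraries (SE 0.15, adjusted p = 1.45e-06). *Atf5*, a transcription factor of the same response, had 20.7 to 71.6 CPM against 8.87 to 19.6 CPM. Its log2 fold changes were −1.64 and −1.79 (adjusted p = 0.000165 and 0.000158). *Asns*, the asparagine synthetase, had 29.9 to 46.1 CPM against 5.79 to 20.1 CPM, with −1.55 and −1.29. *Cth*, which makes cysteine, had 25.4 to 47.9 CPM against 4.32 to 14.04 CPM, with −1.83 and −2.12.

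*Chac1*, which degrades glutathione, was low throughout, at 0.36 to 3.71 CPM in sgInert and 0 to 0.362 CPM in sgCebpa/b/d libraries, and its MT call was lost without sgInert replicate 7 (adjusted p = 0.0593). *Slc7a5*, the large neutral amino acid transporter, had log2 fold changes of −1.19 and −1.18, and its MT call was lost without the same library (adjusted p = 0.0564). *Vldlr*, a lipoprotein receptor, had 98.1 to 189 CPM against 15.3 to 55.4 CPM and fell by 1.93 and by 1.65 (adjusted p = 7.29e-06 and 0.000283).

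Cytosolic ribosomal protein genes moved by small amounts. At an adjusted p under 0.05 alone, 33 of 79 were lower over all libraries and 61 of 79 among MT libraries, against 5.36% and 4.25% of all genes tested, and none was higher. Only *Rpl29* also passed the fold threshold, with log2 fold changes of −1.39 and −1.54. In sgCebpa/b/d libraries it had 16.1 to 89.9 CPM, of which replicate 2 was the highest, and 28.7 to 143 CPM in sgInert. Its call over all libraries was lost in 9 of 14 fits without 1 library (adjusted p up to 0.0738), so it held in 5. Small nucleolar RNA host genes split. *Gas5* had 57.0, 62.0 and 69.2 CPM in MT sgInert and 201 to 401 CPM in the 7 sgCebpa/b/d libraries, values that leave out the ZR sgInert libraries. It rose by 1.98 among MT libraries but by only 1.30 over all (adjusted p = 1.9e-05 and 0.002). Without the unnumbered libraries the rise over all was 1.01 (adjusted p = 0.0441). *Snhg11* had 44.3 to 110.2 CPM against 8.41 to 34.5 CPM and fell by 1.74 and by 1.83, an MT call lost with libraries of 1 animal summed (adjusted p = 0.0512).

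**Figure D5:**
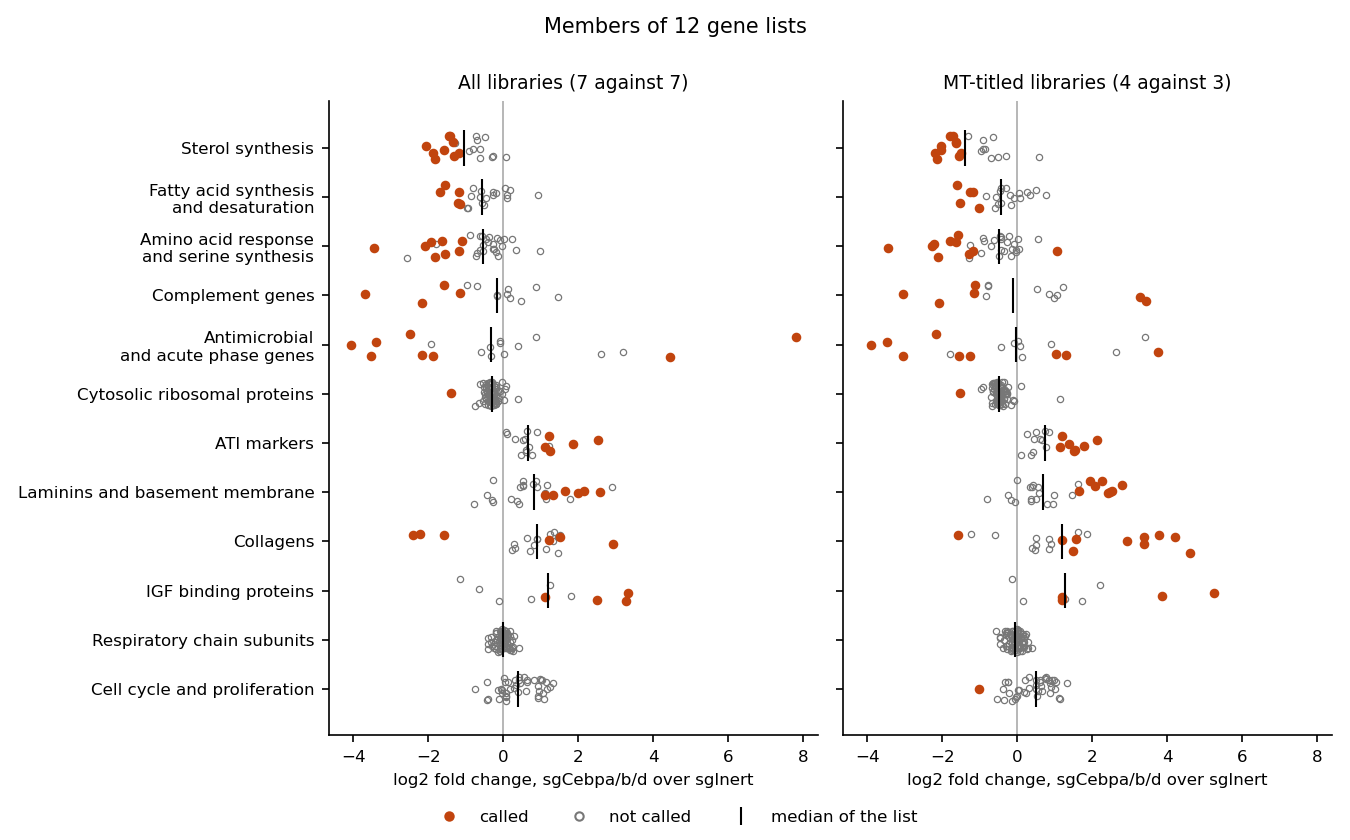
Log2 fold changes of the members of 12 gene lists, over all libraries and among MT libraries, with 1 point per gene and a line at each list's median. Sterol synthesis lies lowest of these pathways with medians of −1.05 and −1.41, and every ATI marker tested lies above 0.

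Markers of alveolar type I (ATI) cells, the thin cells across which gas is exchanged and to which ATII cells give rise, were higher. All 18 ATI markers tested had a positive log2 fold change in both comparisons. Of them, 5 were called over all libraries (*Hopx*, *Pdpn*, *Akap5*, *Sema3e*, *Col4a4*) and these 5 and *Rtkn2* and *Limch1* among MT libraries. At an adjusted p alone, 11 and 15 were higher, against 4.73% and 4.30% of all genes tested. The medians were 0.66 and 0.75.

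*Pdpn*, a surface mucin-like glycoprotein of ATI cells, had 4.86 to 27.0 CPM (median 13.3) in sgInert and 67.9 to 118 CPM (median 82.0) in sgCebpa/b/d libraries, without overlap. It rose by 2.52 (SE 0.39, adjusted p = 0.000147) and by 2.13 among MT libraries (SE 0.52, adjusted p = 0.0193). The MT call was lost without sgInert replicate 5 or 7 (adjusted p up to 0.097). *Hopx*, a homeodomain protein that marks ATI cells, had 70.8, 86.2 and 90.0 CPM in MT sgInert and 163, 197, 234 and 263 CPM in MT sgCebpa/b/d libraries. Its log2 fold changes were 1.86 and 1.38 (adjusted p = 0.000122 and 0.000264). *Ager*, the most abundant ATI receptor, had 118 to 173 CPM against 181 to 235 CPM, a separate but small rise of 0.58 and 0.59. *Akap5*, a kinase anchor, rose by 1.13 and 1.14, and its MT call was lost without sgInert replicate 5 or 7 or sgCebpa/b/d replicate 2 (adjusted p up to 0.0946). *Sema3e*, a secreted guidance protein, rose by 1.26 and 1.50.

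*Sema3a*, *Shh*, *Corin*, *Cavin2* and *Tspan13* were higher in both comparisons. *Sema3a*, a guidance protein that acts through neuropilins and plexins, had 62.8 to 147 CPM (median 80.1) in sgInert and 438 to 599 CPM (median 499) in sgCebpa/b/d libraries. Every targeted library lay far above every control. It rose by 2.48 (SE 0.18, adjusted p = 1.12e-08) and by 2.44 among MT libraries (SE 0.21, adjusted p = 1.04e-05). The gene models *Gm42675* and *Gm42676*, which the annotation marks as awaiting experimental proof and which were also among the 10 highest, lie within *Sema3a* on the same strand (chromosome 5, 13125414 to 13602565), so that their counts cannot be told apart from *Sema3a* transcripts.

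*Shh*, a ligand of lung branching, had 28.4 to 60.4 CPM against 78.5 to 133 CPM, rising by 1.48 (SE 0.15, adjusted p = 8.28e-07) and by 1.51 among MT libraries. *Corin*, a membrane protease that activates natriuretic peptide, had 4.77 to 40.3 CPM (median 16.03) against 146 to 234 CPM (median 199). It rose by 3.24 (SE 0.29, adjusted p = 2.54e-07) and by 4.04 among MT libraries (SE 0.31, adjusted p = 4.76e-06). *Cavin2*, which shapes caveolae, had 32.4 to 57.3 CPM against 126 to 217 CPM and rose by 1.99 and 1.69. *Tspan13*, a tetraspanin, rose by 1.51 and 1.08, and its MT call was lost without sgInert replicate 2, where the log2 fold change came to 0.87.

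Wnt genes moved both ways. Of 24 tested, 3 were higher and 3 lower over all libraries, and the same 3 higher and 2 of the lower among MT libraries, where none was lower without sgInert replicate 5. *Wnt5a*, a ligand of the β-catenin-independent branch, had 0 to 7.22 CPM in sgInert and 17.7 to 33.6 CPM in sgCebpa/b/d libraries. The MT sgInert libraries held 3 counts in all against 651 in the MT sgCebpa/b/d libraries, a ratio of 156.5 (interval 53.6 to 759.1, counting error only). *Porcn*, the acyltransferase that Wnt ligands need for secretion, rose by 1.33 and 1.77. Over all libraries its call was lost without sgInert replicate 5 or sgCebpa/b/d replicate 6 (adjusted p up to 0.0587). *Lgr6*, an R-spondin receptor, was low everywhere, with 0 to 1.08 CPM against 0.678 to 7.15 CPM, and its MT call was lost in 3 of 7 fits without 1 library (adjusted p up to 0.101).

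*Wnt7b*, a ligand of the alveolar epithelium, had 2.65 to 6.98 CPM in sgInert and 0 to 1.69 CPM in sgCebpa/b/d libraries. It fell by 2.47 and by 1.92, and the MT call held in only 1 of 7 fits without 1 library (adjusted p up to 0.136). *Sp5* and *Axin2*, targets of β-catenin, were lower over all libraries, at −2.34 and −1.33. *Sp5* was also lower among MT libraries, at −2.61 (adjusted p = 0.00689), a call lost without sgInert replicate 5 (adjusted p = 0.0513), while *Axin2* was at −1.17 with an adjusted p of 0.214. *Tgfb2*, a TGF-β ligand, had 5.85 to 23.9 CPM against 28.2 to 37.8 CPM and rose by 1.09 and 1.17. Both calls of *Tgfb2* were lost without sgInert replicate 7, where the log2 fold changes came to 0.96 and 0.86.

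Some basement membrane and insulin-like growth factor (IGF) binding genes were higher. Of 26 laminin and basement membrane genes tested, 6 were higher over all libraries and 8 among MT libraries, 4 in both (*Nid1*, *Fras1*, *Frem2*, *Postn*), and none was lower. *Frem2*, a basement membrane anchor protein, had 1.33 to 5.12 CPM against 10.998 to 23.6 CPM without overlap and rose by 2.58 and 2.53 (adjusted p = 0.000156 and 8.13e-05). *Fras1*, its partner, rose by 2.14 and 2.08, an MT call lost without sgInert replicate 5 or 7 (adjusted p up to 0.0996). *Nid1*, which links laminin to collagen IV, rose by 1.65 and 1.64. *Postn* was called over all libraries in 6 of 14 fits without 1 library (adjusted p up to 0.0903). The number higher over all libraries was 11 without sgInert replicate 6, 3 without sgCebpa/b/d replicate 7 and 2 without the 3 unnumbered libraries. *Itgb3*, the β3 integrin subunit, was the only 1 of 15 integrin genes called over all libraries, where 5 of the 15 had a negative log2 fold change and the median was 0.31. Among MT libraries 3 were called (*Itgb3*, *Itgb6*, *Itga7*), of which *Itga7*, at 1.04, was lost without sgInert replicate 5 or 7 or sgCebpa/b/d replicate 2 (to 0.95). *Itgb3* stood at 0.53 to 3.02 CPM against 7.46 to 15.2 CPM (log2 fold change 2.71 and 2.96).

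Of 10 IGF binding protein and IGF genes tested over all libraries and 9 among MT libraries, 4 were higher in each comparison and 3 in both. *Igfbp7*, a secreted protein of vessel walls and epithelium, had 143 to 296 CPM against 399 to 575 CPM without overlap, a rise of 1.13 and 1.20. *Igfbp5*, which binds IGFs in the matrix, had 0 to 10.6 CPM in sgInert and 18.1 to 51.2 CPM in sgCebpa/b/d libraries. It rose by 3.34 (SE 0.49, adjusted p = 8.99e-05) and by 5.24 among MT libraries, where the 3 sgInert libraries had 0, 11 and 2 counts. *Igfbp3* had 8.68 to 11.02 CPM in MT and up to 46.7 CPM in unnumbered sgCebpa/b/d libraries, against 1.44 to 6.99 CPM in sgInert. The effect differed between title series (adjusted p = 0.0345), and the MT call was lost without sgInert replicate 5 or 7 (adjusted p up to 0.0732).

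*Ibsp*, an acidic glycoprotein of bone matrix, was almost absent from sgInert. It had 0 counts in 6 of 7 sgInert libraries, had 0.90 CPM in sgInert replicate 6, and had 9.49 to 40.2 CPM in the sgCebpa/b/d libraries. Among MT libraries, 0 against 470 counts made it at least 91.9-fold higher, taking 3 counts over the group as the floor and the lower counting limit of the targeted group. The MT call was lost with libraries of 1 animal summed (adjusted p = 0.08). *Adam12*, a membrane metalloprotease, had 1.95 to 17.2 CPM against 20.1 to 38.7 CPM and rose by 2.10 and 2.62. *Cap2*, an actin-binding protein, *Peli2*, a ubiquitin ligase of immune signalling, and *Ckb*, the brain-type creatine kinase, rose by 3.42, 3.00 and 2.91 over all libraries. Among MT libraries these 3 rose by 4.64, 2.83 and 2.14, with 0 to 22 counts in each sgInert library.

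Collagen genes were called in both directions over all libraries, *Col3a1*, *Col4a4* and *Col14a1* higher and *Col6a1*, *Col6a2* and *Col12a1* lower. *Col6a1*, a chain of the beaded-filament collagen, had 21.4 to 70.7 CPM in sgInert and 5.27 to 11.5 CPM in sgCebpa/b/d libraries. The groups did not overlap, and it fell by 2.40 (SE 0.26, adjusted p = 2e-06) and by 1.58 among MT libraries (SE 0.24, adjusted p = 0.00081). *Col14a1* rose by 2.93 and 3.38 but ranged from 2.17 to 33.7 CPM among the MT sgCebpa/b/d libraries, and its MT call held in only 2 of 7 fits without 1 library (adjusted p up to 0.122). Over all libraries 3 of 21 collagen genes were higher and 3 lower, and among MT libraries 9 were higher and 1 lower. Without sgInert replicate 6, 8 were higher over all libraries.

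The fibrillar collagens *Col1a1* and *Col1a2* were called among MT libraries only. *Col1a1* had 1.46, 0.387 and 0.731 CPM in MT sgInert and 7.76 to 21.5 CPM in MT sgCebpa/b/d libraries, while the ZR sgInert libraries reached 22.9 CPM. The log2 fold change was 4.21 among MT libraries (adjusted p = 0.000237) and 1.46 over all (adjusted p = 0.0969). *Col1a2* moved alike, at 4.60 and 1.47. *Fn1*, the matrix glycoprotein fibronectin, had 25.8 to 47.5 CPM in MT sgInert, up to 204 CPM in ZR sgInert, and 175 to 333 CPM in sgCebpa/b/d libraries. It rose by 2.46 among MT libraries (adjusted p = 1.35e-05), while over all libraries its log2 fold change of 1.11 had an adjusted p of 0.0504. For all 3 the effect differed between title series (adjusted p = 0.0231, 0.0171 and 0.00744).

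The fibroblast markers moved with these collagens, but *Col1a1*, *Col1a2*, *Col3a1* and *Postn* are themselves on the marker list. Part of this likeness is thus fixed by shared genes. Of 13 markers tested among MT libraries, 8 were called higher, with a median log2 fold change of 2.66, and of 14 tested over all libraries 3, with a median of 0.99. Besides the shared genes, the markers called included *Dcn* in both comparisons and *Pdgfrb* among MT libraries. Without 1 library the number called was 6 to 8 among MT libraries and 1 to 6 over all libraries, with 6 without sgInert replicate 6. *Dcn*, a proteoglycan of fibroblasts, had 0, 2.00 and 4.64 CPM in MT sgInert and 18.3 to 89.5 CPM in MT sgCebpa/b/d libraries, a call lost with libraries of 1 animal summed (adjusted p = 0.0759). *Pdgfrb*, a receptor of fibroblasts and pericytes, had 0.364 to 1.03 CPM against 1.81 to 10.7 CPM there, and its call was lost in 3 of 7 fits without 1 library (adjusted p up to 0.0743). No fibroblast marker was at 3 counts or fewer in every MT library. *Vim*, a filament protein of mesenchymal cells, rose by 2.13 over all and 1.18 among MT libraries. Without the unnumbered libraries its log2 fold change over all libraries was 0.42 (adjusted p = 0.647). The part of the fibroblast markers in the rises of collagens, *Fn1*, *Postn* and other matrix genes was not tested.

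Of the MT calls, 34 higher and 16 lower genes differed in effect between title series at an adjusted p under 0.05, against 2.41% of all genes tested. Choosing genes by their MT call favours such a difference. *Flna*, *Itgb6*, *Adamts1*, *Dclk1* and *Jcad* were also called among MT libraries only. *Flna*, an actin crosslinker, was at 1.01 among MT and 0.78 over all libraries, and its MT call was lost without sgInert replicate 7 (0.93). *Itgb6*, the epithelial β6 integrin subunit, was at 1.16 and 0.96. In the other direction, *Adamts1*, a secreted metalloprotease, was at −1.17 and −0.93. *Dclk1*, a microtubule-linked kinase, was at −1.04 and −0.98, an MT call lost without sgCebpa/b/d replicate 3 or 4 (−0.96). *Jcad*, a junction protein, had 22.8 to 40.0 against 4.41 to 8.41 CPM among MT libraries (−2.10, adjusted p = 0.000222), but −0.79 over all libraries (adjusted p = 0.211).

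Among transcription factors, the changes of *Sox9*, *Runx2* and *Bach2* depended on the title series or, among MT libraries, on single libraries. Of 24 lung lineage factors tested, 1 was higher and 4 lower over all libraries, and 1 and 2 among MT libraries. *Sox9* and *Runx2* are also among 24 transitional and distal tip progenitor genes tested. Of these, 4 were higher, 1 was lower and 10 had a negative log2 fold change over all libraries. Among MT libraries 6 were higher, none was lower and 8 had a negative one. *Sox9*, a factor of distal tip progenitors, had 2.73, 2.84 and 1.22 CPM in MT sgInert and 35.5, 38.3, 48.3 and 41.4 CPM in MT sgCebpa/b/d libraries, a rise of 4.09 (SE 0.30, adjusted p = 2.38e-06). Over all libraries the ranges overlapped (1.22 to 20.9 and 4.06 to 48.3 CPM), and the rise of 1.92 (adjusted p = 0.0419) held in only 5 of 14 fits without 1 library. Between unnumbered and ZR libraries the log2 fold change was −0.48, and the difference between title series passed the test (adjusted p = 0.00644). *Runx2*, a factor of bone formation, rose by 1.85 and 1.77, with its MT call held in 3 of 7 fits without 1 library (adjusted p up to 0.097). *Bach2*, a repressor, fell by 1.77 and 1.12, and its MT call was lost without sgInert replicate 7 (adjusted p up to 0.0671). *Nkx2-1*, the master factor of lung identity, was at 203 to 275 against 224 to 339 CPM, with log2 fold changes of 0.23 and 0.05 (adjusted p = 0.218 and 0.816).

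Several groups called over all libraries were not called among MT libraries. Of 9 AP-1 genes tested, 3 (*Fos*, *Fosb*, *Junb*) were higher over all libraries and 1 (*Fosb*) among MT libraries, and none was called higher over all libraries once the 3 unnumbered ones were left out. The call of *Junb* was lost without sgInert replicate 6 or sgCebpa/b/d replicate 7 (adjusted p up to 0.0529), and the MT call of *Fosb* without sgInert replicate 5 (adjusted p = 0.0696). *Fos*, an immediate early gene, had 1608 to 3884 CPM in sgCebpa/b/d, 1286 to 1613 CPM in MT sgInert and as little as 184 CPM in ZR sgInert libraries. Its log2 fold change was 1.52 (adjusted p = 0.00364) over all and 0.44 (adjusted p = 0.0922) among MT libraries. *Egr1*, another immediate early gene, was at 1.10 and 0.07 (adjusted p = 0.0374 and 0.82), and the effect differed between title series for both (adjusted p = 0.00947 and 0.0373). The call of *Egr1* over all libraries was lost in 7 of 14 fits without 1 library (adjusted p up to 0.0798).

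Of 14 endothelial markers, 6 were higher over all libraries (3 without sgCebpa/b/d replicate 5, and none without the 3 unnumbered libraries) and none of the 12 tested among MT libraries by edgeR or DESeq2 (1 at an unadjusted p under 0.05). *Pecam1*, which encodes the sorted-out antigen CD31, had 5.44 to 10.6 CPM in MT and up to 74.5 CPM in unnumbered sgCebpa/b/d libraries, against 3.45 to 11.5 CPM in sgInert. *Cdh5*, the vascular cadherin, had 2.80 to 19.1 CPM and up to 77.8 CPM, against 0.932 to 16.1 CPM. Their calls over all libraries were lost without sgCebpa/b/d replicate 5 (adjusted p up to 0.0724 and 0.062), and that of *Cdh5* also without replicate 7. The 5 largest rises without an unadjusted p under 0.05 among MT libraries were those of *Chil4*, *Rbm24*, *Apold1*, *Gm8995* and *Igf2*. Their log2 fold changes were 7.79, 4.30, 3.92, 3.49 and 3.28 over all libraries. Among MT libraries they were 3.40 for *Chil4*, −0.50 for *Rbm24*, 0.35 for *Gm8995* and 1.71 for *Igf2*. *Apold1* had 3 counts in the MT sgInert and 18 in the MT sgCebpa/b/d libraries, a ratio of 4.33 (interval 1.48 to 20.99, counting error only). *Chil4*, a chitinase-like protein of macrophages and airway, had 0 to 1.28 CPM in sgInert, 0.33 to 11.95 CPM in MT and up to 346 CPM in unnumbered sgCebpa/b/d libraries. *Rbm24*, an RNA-binding protein of muscle, had up to 1.64 CPM in sgInert, 0.339 to 0.495 CPM in MT and up to 23.8 CPM in unnumbered sgCebpa/b/d libraries. The part of endothelial and macrophage RNA in these rises was not tested.

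Lower genes without a matching fall among MT libraries were fewer. They were led by the pseudogenes *Gm10020* and *Gm10704*, whose reads can come from their parent genes, and by *Cdo1* and *Ivl*. *Cdo1*, which oxidises cysteine, was at −2.10 over all and −1.34 among MT libraries (adjusted p = 0.0111 and 0.266). *Ivl*, a protein of the cornified envelope, was at −1.53 and −0.50, and its call over all libraries was lost in 7 of 14 fits without 1 library (adjusted p up to 0.179).

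The following pathways held no called gene over all libraries. Over all libraries edgeR called none of 74 respiratory chain subunit genes, none of 19 MHC class I genes and none of 37 translation factor genes, and DESeq2 called none of them either. At an unadjusted p under 0.05 the counts were 9 of the 74, 2 of the 19 and 15 of the 37. Of these 15 translation factor genes, 14 were lower. At an adjusted p under 0.05 alone, 5 of the 37 were lower and 1 higher over all libraries, and 6 were lower among MT libraries. For comparison, 5.36% and 4.25% of all genes tested were lower. The list medians were −0.14 and −0.17. Of 42 cell cycle genes none was called over all libraries by either tool (4 at an unadjusted p under 0.05), and 1 was lower among MT libraries, with list medians of 0.41 and 0.50.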

How the data were processed

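Neoplastic cells of 7 sgInert and 7 sgCebpa/b/d samples were analysed, and 5 sgLkb1 libraries entered the fit to share its estimate of the spread. The authors aligned paired reads to mm10 with STAR 2.6.1d and estimated gene levels with RSEM 1.2.30, per the labels and methods. The deposited expected counts are RSEM's estimates without normalization, and RSEM divides reads shared by similar genes by a model. The deposited TPM values correct these for length and were not used for tests. The deposited effective gene lengths, in bases, entered an alternative as offsets. The whole-series tables hold the authors' normalized counts and DESeq2 1.26.0 comparisons and were not used here.

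Expected counts were rounded. Low genes were removed by filterByExpr (count of 10, total of 15), and the others were scaled by TMM and tested with glmQLFit and glmQLFTest of edgeR 4.0.16 (R 4.3.3, limma 3.58.1), over all 19 libraries and over the 10 MT-titled ones. The adjusted p-values in the text are Benjamini-Hochberg values of this test over all genes. Depth of 2760731 to 9944134 counts limits low genes most, and counting intervals cover counting error only. No pair of replicates agreed within sampling noise (chi-square per gene 7.34 to 76.8). A group with at most 3 counts gives a bound or a counting interval in place of a fitted fold.

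Named genes were the 10 highest, 10 lowest and 5 smallest p in each direction among genes called in both comparisons without overlap, the 5 smallest p called among MT libraries only, the 5 largest changes not found there (average log2 CPM above 2 for all), and members of 58 gene lists (1267 genes). Some genes that the rule names are not reported here. Members and lists were chosen with earlier results of these data known. Promoter windows came from RefSeq (GRCm38.p6), and coordinates of genes from GENCODE, which held 13820 of the 13986 symbols tested. Figures were drawn with matplotlib 3.10.9 in Python 3.11.15.

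The fit was tested on simulated counts. Over all libraries it called 80.6% of 98 genes changed 4-fold and 26.5% of 98 changed 2-fold, with 3 unchanged genes called among 13689. For the MT libraries these were 71.9% and 22.9% of 96, with 4 unchanged genes called among 13315. The simulated libraries were drawn independently, so that these false calls do not cover libraries that share an animal. Alternatives covered RLE scaling, DESeq2 1.42.0, gene lengths, the filter, the libraries entered, sex, title series, summed animals, the replicate block, the threshold and leaving out each library. The replicate numbers of the labels did not pair samples (correlations of deviations −0.146 to 0.0965, 0 of 7 best with their own number).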

Additional observations from a re-analysis of the deposited data

Results flagged for a closer look

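Over the 120 genes named, 240 groups of 7 libraries were examined for 1 library far from the rest, and 17 stood out by Dixon's ratio (gap to the nearest library over the range of the group) above its 95% critical value. Chance alone marks about 1 in 20 groups. Among sgInert libraries these were *Ibsp* in replicate 6 (ratio 1.0), *Postn* (0.611, highest) and *Egr1* (0.703, lowest) in replicate 6, *Itgb6* (0.682, highest) and *Lyz2* (0.577, lowest) in replicate 3, *Rasd2* (0.571) and *Tgfb2* (0.575), both lowest in replicate 7, and *Gm42675* (0.699, lowest) in replicate 1. Among sgCebpa/b/d libraries, replicate 2 was the lowest for *Shh* (0.67) and the highest for *Insig1* (0.61) and *Rpl29* (0.599). *C3* was lowest in replicate 1 (0.652), *Lgr6* in replicate 4 (0.602), *Myc* in replicate 3 (0.74), *Bach2* in replicate 5 (0.575), and *Acaca* (0.671) and *Fads2* (0.708) in replicate 7.

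For 21 of the named genes, the fold change of sgCebpa/b/d over sgInert differed between the title series. The test was the interaction test of edgeR at a Benjamini-Hochberg adjusted p under 0.05. The differences below are log2 fold changes among MT libraries minus those of unnumbered against ZR libraries. The effect was more positive among MT libraries for *Wnt5a* (4.81, adjusted p = 0.00516), *Sox9* (4.59, 0.00644), *Col1a2* (3.66, 0.0171), *Dmkn* (3.66, 0.00447), *Col1a1* (3.14, 0.0231), *C6* (2.34, 0.0165), *Fn1* (1.64, 0.00744), *Lyz2* (1.62, 0.0124), *Lbp* (1.47, 0.0112), *Lcn2* (1.40, 0.0237) and *Fasn* (0.82, 0.0231). It was more negative for *Rbm24* (−6.75, 0.00679), *Gm8995* (−4.78, 0.0258), *Cdh5* (−3.87, 0.0103), *Pecam1* (−3.20, 0.00644), *Cebpb* (−2.36, 0.00624), *Igfbp3* (−2.28, 0.0345), *Fos* (−2.23, 0.00947), *Jcad* (−2.20, 0.0134), *Egr1* (−2.03, 0.0373) and *Cebpd* (−1.84, 0.00252). Sex and title series of the sgCebpa/b/d libraries cannot be told apart in any of these. Nor can targeting and title series be told apart in the unnumbered against ZR values. The difference for *Wnt5a* rests on 3 counts in the MT sgInert libraries.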

How the results depend on the processing

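Calls over all libraries (370 higher, 280 lower) moved to 662 and 750 at an adjusted p alone, and the higher calls to 187 without the 3 unnumbered sgCebpa/b/d libraries, an alternative chosen after seeing the data. Leaving out each library gave 274 to 412 higher and 254 to 289 lower calls. MT calls (313 higher, 220 lower) moved to 588 and 581 at an adjusted p alone, to 146 and 129 with libraries of 1 animal summed, and for the higher calls to 497 without a filter. Leaving out each library gave 203 (without sgInert replicate 5) to 323 higher and 166 to 247 lower calls. Calls in both comparisons (163 higher, 161 lower) moved to 321 and 407 at an adjusted p alone, the higher ones to 71 with animals summed, and leaving out each library gave 103 (without sgInert replicate 5) to 152 and 129 to 172. With animals summed, fewer units enter the fit. In the other cases the cause was not tested. With the replicate number as a block, which marks no shared source, 344 were higher and 266 lower over all libraries, and no block was possible among MT libraries, which share 1 number. Signs turned for *Il1b* over all libraries with title series as a covariate (−0.53) and, among MT libraries where none of these was called, for *Rbm24* (2.04) and *Ivl* (0.25) without sgInert replicate 2 (ranges −1.15 to 2.04 and −0.83 to 0.25 with each library left out), *Gm8995* (−0.19 with length offsets, −0.13 with animals summed, −0.19 without sgInert replicate 2, −0.11 without sgCebpa/b/d replicate 4, range to 1.67) and *Gm10020* (0.43 with sex as a covariate, in females only and without sgInert replicate 7, 0.04 and 0.47 without sgCebpa/b/d replicates 1 and 2, range from −0.96). Of the other values of single genes, 3460 over all and 2328 among MT libraries kept their direction and side of the threshold, 410 and 375 lost it and 34 and 2 gained it. Named genes whose MT call was lost with libraries of 1 animal summed (adjusted p 0.0353 to 0.349) were *Ibsp*, *Peli2*, *Rasd2*, *Pdpn*, *Runx2*, *Muc5ac*, *Bach2*, *Msmo1*, *Insig1*, *Srebf2*, *Fads2*, *Fras1*, *Postn*, *Fosb*, *Wnt7b*, *Lgr6*, *Sp5*, *Porcn*, *Tgfb2*, *Il33*, *Ifit2*, *Oas1a*, *Trim30a*, *Chac1*, *Slc7a5*, *Igfbp3*, *Rpl29*, *Snhg11*, *Dcn*, *Myc*, *C4b*, *Cfi* and *Pdgfrb*. Those whose call over all libraries was lost without the 3 unnumbered libraries (adjusted p 0.000723 to 0.977) were *Rbm24*, *Apold1*, *Gm8995*, *Igf2*, *Ivl*, *Akap5*, *Nsdhl*, *Insig1*, *Fads2*, *Acss2*, *Mid1ip1*, *Gpam*, *Fabp5*, *Col3a1*, *Nid1*, *Postn*, *Vim*, *Egr1*, *Fos*, *Fosb*, *Junb*, *Axin2*, *Sp5*, *Porcn*, *Tgfb2*, *Igfbp7*, *Rpl29*, *Pecam1* and *Cdh5*, and *Chil4* was not tested there.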

Other observations

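Interferon-stimulated genes, which are part of antiviral defence, were higher in part. Of 29 tested over all libraries, 4 were called higher by edgeR's quasi-likelihood test and none lower, and 24 had a positive log2 fold change, with a median of 0.61. Among MT libraries 6 of 30 were called higher. Without 1 library these counts were 1 to 6 and 2 to 8, with 6 without sgCebpa/b/d replicate 2 or 5 over all libraries and 2 without sgInert replicate 5 or sgCebpa/b/d replicate 4 among MT libraries. *Trim30a*, an interferon-induced ubiquitin ligase, had 6.56, 1.29 and 5.36 CPM in MT sgInert and 29.3, 10.2, 37.3 and 38.0 CPM in MT sgCebpa/b/d libraries, which did not overlap. Its log2 fold change was 2.74 there (adjusted p = 0.00874, and 0.111 with libraries of 1 animal summed), against 1.56 over all libraries (adjusted p = 0.036), a call that held in 5 of 14 fits without 1 library. *Oas1a*, a sensor of double-stranded RNA, had 2, 2 and 0 counts in MT sgInert libraries and 1.74 to 11.4 CPM in MT sgCebpa/b/d libraries. *Ifit2* was called in both comparisons, at 2.00 and 2.34, but its MT call held in only 1 of 7 fits without 1 library (adjusted p up to 0.183).

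*Muc5ac*, a gel-forming mucin of stomach and airway, had 0 counts in the 3 MT sgInert libraries and 107 in the 4 MT sgCebpa/b/d libraries, at least 20.9-fold higher with 3 counts over the group as the floor and the lower counting limit of the targeted group. The ZR sgInert libraries reached 1.13 CPM, and the MT call was lost without sgInert replicate 5 (adjusted p = 0.0586). It was the only 1 of 9 gastric and gut endoderm genes tested that was called in either comparison. *Pfkfb3*, which makes an activator of glycolysis, had 5.03 to 22.8 CPM in sgInert and 21.1 to 38.1 CPM in sgCebpa/b/d libraries and rose by 1.43 over all and 1.91 among MT libraries (adjusted p = 0.00207 and 0.00169). It was the only 1 of 20 glycolysis genes higher in both. Of the ERK output genes, *Epha4*, an ephrin receptor, rose by 1.18 and 1.41, while *Myc* was at −0.91 over all libraries, below the size needed for a call, and at −1.01 among MT libraries, a call lost without sgInert replicate 5 or sgCebpa/b/d replicate 3 (adjusted p up to 0.0833).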
